A study of Mus musculus with 7 samples.

Results

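The messenger RNAs described here encode 7 receptors of ER-phagy: Fam134a, Fam134b, Fam134c, Sec62, Rtn3, Ccpg1 and Atl3. All 7 were found by symbol and Entrez identifier among the 27179 genes counted in femora of mice labelled Dmp1Cre.Efnb2f/f, a cross meant to delete EphrinB2 in osteocytes, and of Dmp1Cre controls, and all 7 were among the 15098 genes tested. The files list Fam134a, Fam134b and Fam134c under their newer symbols Retreg2, Retreg1 and Retreg3. Fam134b was chosen by its difference between the genotypes in these same libraries, so its values are a description and carry no test. The other 6 were taken as known receptors of the same process, with no threshold on their values.

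ER-phagy is the selective form of autophagy that delivers pieces of endoplasmic reticulum to the lysosome. A receptor sits in the membrane of the reticulum and carries a short motif that binds ATG8-family proteins (LC3 and GABARAP) on the growing autophagosome. The FAM134 proteins and the long form of RTN3 also hold a reticulon-type hairpin domain that bends the membrane, and the short forms of RTN3 lack the region that binds ATG8 proteins. SEC62, CCPG1 and ATL3 have no such hairpin domain, so the common heading of reticulon-type receptors fits only 4 of the 7. Cells that secrete much protein, such as the collagen-producing osteoblast that becomes an osteocyte, rely on control of the amount and quality of endoplasmic reticulum.

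Femora flushed of marrow, which the labels call cortical bone, were the source of RNA, from female C57BL/6 mice aged 12 weeks. The 3 mutant libraries are labelled Dmp1Cre.Efnb2f/f, in which both copies of Efnb2 (EphrinB2) carry loxP sites and Cre is driven by a Dmp1 promoter fragment that acts in late osteoblasts and osteocytes. The 4 controls are labelled Dmp1Cre and carry the same Cre without floxed Efnb2, as littermates or cousins. By the study's methods, all mice were fasted and given calcein before collection. The library of each animal is named below by its genotype and number. Libraries held between 17245556 and 22075778 counted fragments, and all 7 receptors had at least 536 counts in every library, so counting error is small beside the differences between animals. Cre acts in a fraction of the cells of a flushed femur, and the RNA also held that of muscle and blood cells. Skeletal muscle markers, 12 in number and none at 0, summed to 14455 to 44177 CPM (counts scaled by TMM-normalized library size), and osteocyte markers to 156 to 621 CPM. Efnb2 itself, read over the whole gene and not over the floxed exon alone, was higher in every mutant library than in every control, the opposite of a loss. It was at 14.3 ± 3.21 CPM (SD, n = 3) in the mutant libraries and 7.30 ± 1.07 CPM (SD, n = 4) in the controls. Counts from flushed bone include the cells in which Cre does not act, so these counts do not measure deletion in osteocytes. By PCR over the targeted region in sorted osteocytes, not analysed here, the study reported effective targeting, with Efnb2 kept in other cells. Mutant therefore means a library labelled Dmp1Cre.Efnb2f/f throughout. On the first principal component of log2 CPM, which held 53.9% of the variance, controls 1 and 4 scored 43.9 and 68.8, and the other 5 libraries between -41.4 and -1.76. In such bulk RNA, fewer cells of a type and less RNA per cell cannot be told apart.

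None of the 6 tested receptors passed an adjusted p of 0.05 between the genotypes (edgeR quasi-likelihood, Benjamini-Hochberg over 15098 genes), as did 0% of all genes. Before adjustment, 0 of the 6 had a p under 0.05, against 9.66% of all genes. By DESeq2 and by the limma pipeline without a day block 0 of the 6 passed as well, where 0.477% and 14.9% of all genes did. When control 4 was taken as collected on the second day together with mutant 2 or mutant 3, limma with that day as a block called Fam134a, with 24.6% and 32.6% of all genes. Fam134b was 3.09-fold higher in mutant than in control libraries on average, Fam134a and Fam134c lay lower, and the means of Sec62, Rtn3, Ccpg1 and Atl3 were within 1.27-fold of the control mean. Fam134a was the only receptor whose groups did not overlap. It was lower in every mutant library, as were 6.3% of all genes, while 0 of the 7 were higher in every mutant library, against 5.05% of all genes. The controls differed among themselves by up to 4.08-fold, and the receptors are therefore described library by library.

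**Figure D1:**
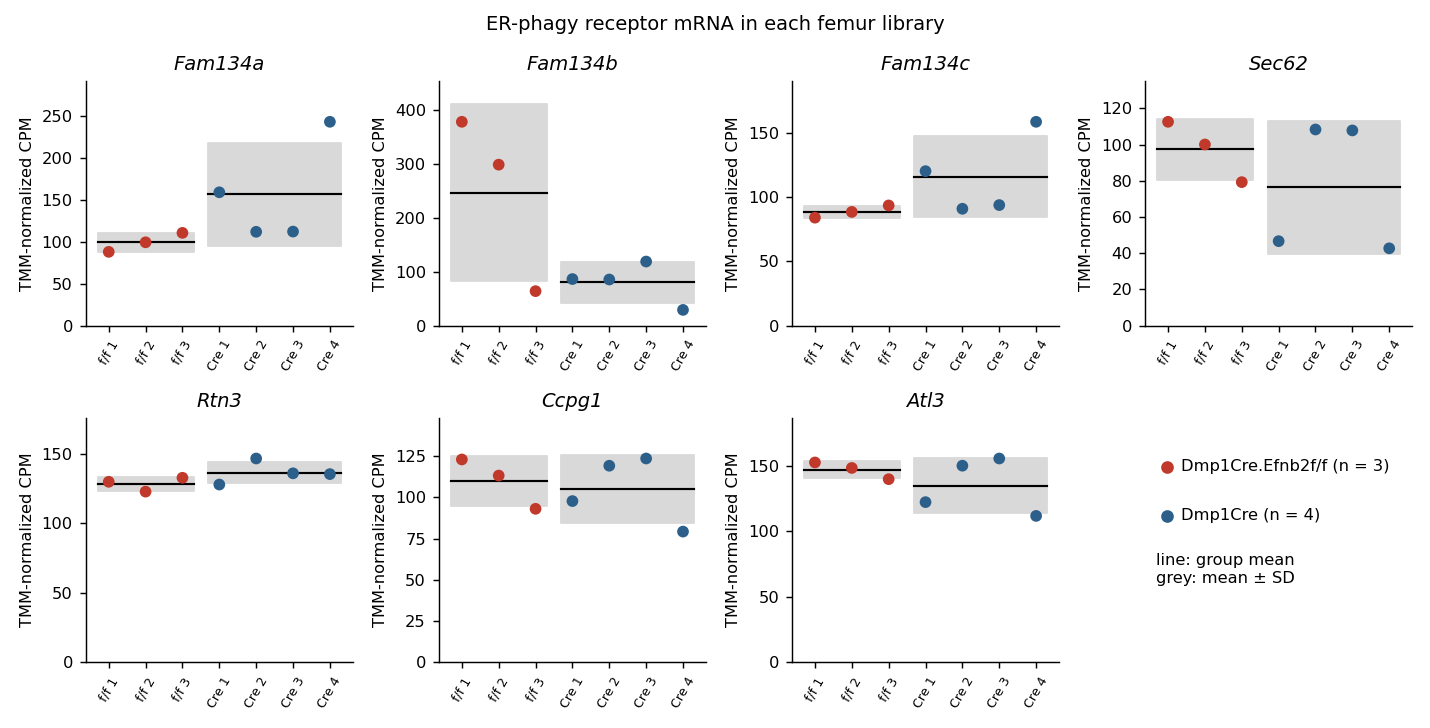
TMM-normalized CPM of the 7 receptors in each of the 3 Dmp1Cre.Efnb2f/f (f/f) and 4 Dmp1Cre (Cre) libraries, with group means (lines) and SD (grey). Fam134b reached 378 and 298 CPM in mutants 1 and 2 only, whereas Fam134a and Fam134c peaked in controls 1 and 4, where Sec62 was lowest.

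Fam134b (Entrez 66270, chromosome 15, 25843298 to 25973696, plus strand of GRCm38) encodes a receptor of flat sheets of the reticulum. Its counts were 6794, 5438 and 1212 in mutants 1, 2 and 3. In controls 1, 2, 3 and 4 they were 1666, 1498, 2028 and 536. After normalization the mutants stood at 378, 298 and 63.9 CPM and the controls at 86.3, 85.4, 119 and 29.1 CPM. Mutants 1 and 2 were above every control, but mutant 3 was below 3 of the 4 controls, so the groups overlapped. The group means were 247 ± 163 CPM (SD, n = 3) and 79.9 ± 37.2 CPM (SD, n = 4), and the log2 fold change was 1.63 with a standard error of 0.60. Fam134b spanned 13.0-fold from its lowest to its highest library and 4.08-fold among the controls alone, more than any other receptor.

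Animals from the same parents offered a pair for comparison. Mutants 1 and 2 came from a single parent cross that gave no control, controls 1 and 2 from another that gave no mutant, and control 4 from a further cross. Mutant 3 and control 3 had the same parents, and Fam134b in mutant 3 was 0.54 times its level in control 3. Animals were collected on 2 days that no label names, so mutant 3 and control 3 may also differ by day. In a fit that blocks on parent cross, only this pair bears on the genotype, and Fam134b had a log2 fold change of -0.89. In the same pair the ratio of mutant 3 to control 3 was 0.99 for Fam134a, 1.00 for Fam134c, 0.98 for Rtn3, 0.90 for Atl3, 0.75 for Ccpg1 and 0.74 for Sec62. All 7 were thus at or below their level in control 3. Genotype and parent cross cannot be told apart in mutants 1 and 2.

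Fam134a (Entrez 227298, chromosome 1, 75142786 to 75147909, plus strand) and Fam134c (Entrez 67998, chromosome 11, 101096322 to 101119841, minus strand) are paralogs of Fam134b with the same hairpin domain and ATG8-binding motif. Fam134a stood at 88.0, 99.4 and 111 CPM in mutants 1, 2 and 3. In the controls it stood at 159, 112, 112 and 243 CPM. The highest mutant and the lowest control were separated by little, at 110.6 and 111.9 CPM, and controls 1 and 4 were far above both. Group means were 99.3 ± 11.3 CPM (SD, n = 3) and 157 ± 61.8 CPM (SD, n = 4), and the log2 fold change was -0.66 with a standard error of 0.29 (adjusted p = 0.511, edgeR quasi-likelihood, Benjamini-Hochberg). Without control 4 it was -0.36, and without both controls 1 and 4 it was -0.17.

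Fam134c followed Fam134a library by library at a lower amplitude. Its values were 84.0, 88.5 and 93.6 CPM in the mutants and 120.3, 91.0, 93.9 and 159 CPM in the controls. Mutant 3 was above control 2, so the groups overlapped, and controls 1 and 4 were again highest. The log2 fold change was -0.39 with a standard error of 0.22 (adjusted p = 0.522, edgeR quasi-likelihood, Benjamini-Hochberg), and -0.06 without controls 1 and 4. Over the 7 libraries Pearson's r of log2 CPM was 0.994 between Fam134a and Fam134c and -0.827 between Fam134a and Fam134b, a description of 7 points that share library and base composition.

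The Fam134 paralogs were set side by side as RPKM (CPM per kilobase of gene length), a scale on which levels of different genes can be compared. In the controls the order of all 7 receptors by mean RPKM was Fam134a (61.2 ± 24.2), Fam134c (35.1 ± 9.50), Ccpg1 (28.9 ± 5.64), Rtn3 (27.1 ± 1.53), Fam134b (23.9 ± 11.1), Atl3 (20.1 ± 3.17) and Sec62 (19.3 ± 9.24; SD, n = 4). Fam134a exceeded Fam134c in 4 of 4 control libraries, whereas Fam134c exceeded Ccpg1, Rtn3 exceeded Fam134b, and Atl3 exceeded Sec62 in 2 of 4 each, so these neighbours did not differ beyond their spread. In the mutants the order was Fam134b (73.7 ± 48.8), Fam134a (38.8 ± 4.43), Ccpg1 (30.2 ± 4.20), Fam134c (26.8 ± 1.44), Rtn3 (25.5 ± 1.02), Sec62 (24.5 ± 4.25) and Atl3 (21.9 ± 0.969; SD, n = 3). Fam134b led in 2 of the 3 mutant libraries, and only Fam134a over Ccpg1 held in 3 of 3.

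Fam134b made up 65.4% and 57.6% of the summed RPKM of the Fam134 paralogs in mutants 1 and 2 but 21.1% in mutant 3. In the controls its share was 20.7%, 26.4%, 32.9% and 5.74%. The prevailing FAM134 message was therefore Fam134b in 2 animals and Fam134a in the other 5. The sum of the paralogs was 173, 155 and 90.7 RPKM in the mutants and 124, 96.8, 108 and 152 RPKM in the controls. The groups overlapped on this sum, with control 4 close to mutant 2 although the make-up was opposite, 5.74% against 57.6% Fam134b. Over all 7 receptors Fam134b held 39.8% and 34.6% of the summed RPKM in mutants 1 and 2 and between 3.82% and 16.2% in the other 5 libraries.

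**Figure D2:**
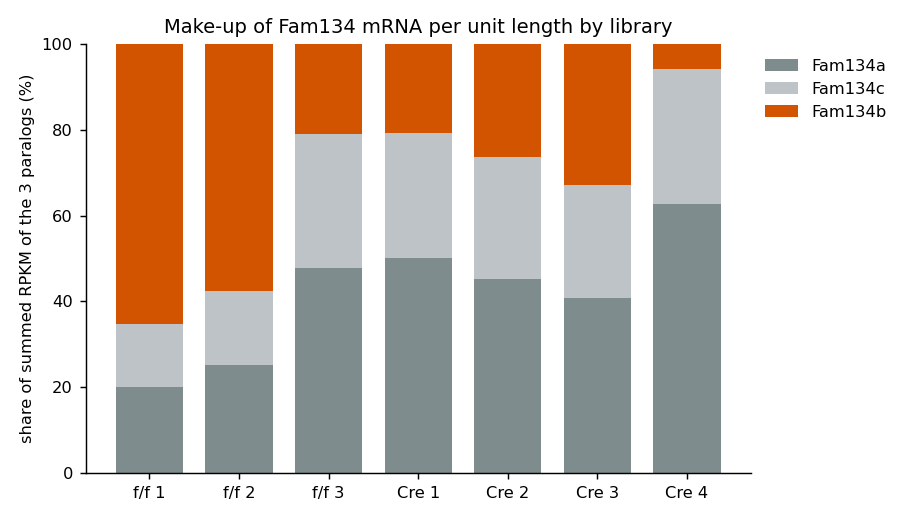
Share (%) of Fam134a, Fam134c and Fam134b in the summed RPKM of these 3 paralogs for each of 3 Dmp1Cre.Efnb2f/f (f/f) and 4 Dmp1Cre (Cre) libraries. Fam134b held 65.4% and 57.6% in f/f 1 and f/f 2 and at most 32.9% elsewhere.

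Sec62 (Entrez 69276, chromosome 3, 30792876 to 30821263, plus strand) encodes a partner of the SEC61 protein channel that also acts as receptor when the reticulum shrinks back after stress. It stood at 113, 100.1 and 79.3 CPM in the mutants and at 46.7, 108, 108 and 42.7 CPM in the controls. The split ran within the controls, where controls 1 and 4 together had 0.41 times the mean of controls 2 and 3. The log2 fold change was 0.35 with a standard error of 0.36 (adjusted p = 0.674, edgeR quasi-likelihood, Benjamini-Hochberg). Without controls 1 and 4 its sign turned, to -0.15.

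Atl3 (Entrez 109168, chromosome 19, 7494015 to 7538609, plus strand) encodes a GTPase that joins tubules of the reticulum and serves as their receptor. It varied less, at 152, 148 and 139.6 CPM in the mutants against 122, 149.9, 155 and 112 CPM in the controls. Controls 1 and 4 were lowest, and the mutants lay among the other libraries. The log2 fold change was 0.12 with a standard error of 0.17 (adjusted p = 0.750, edgeR quasi-likelihood, Benjamini-Hochberg), and its sign turned without controls 1 and 4, to -0.05.

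Ccpg1 (Entrez 72278, chromosome 9, 72985402 to 73016340, plus strand) encodes a receptor whose gene is induced by the unfolded protein response. Its values were 123, 113 and 93.0 CPM in the mutants and 97.7, 119, 124 and 79.2 CPM in the controls. The groups overlapped widely, and the log2 fold change was 0.06 with a standard error of 0.20 (adjusted p = 0.889, edgeR quasi-likelihood, Benjamini-Hochberg). In GENCODE M21, 2170 of the 7497 exon bases of Ccpg1 are shared with Pigb on the opposite strand and 3213 with Gm44503 on the same strand. Reads of these genes may be mixed, so the level of Ccpg1 is uncertain. Pigb had at most 285 counts in any library, against at least 1458 for Ccpg1, and Gm44503 was not among the counted symbols. The counts used a Ccpg1 length of 3635 bases, so the bases shared there may differ.

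Rtn3 (Entrez 20168, chromosome 19, 7425895 to 7483291, minus strand) encodes a reticulon whose long form acts on tubules. It was the steadiest receptor, at 129.7, 123 and 133 CPM in the mutants and 128, 146, 136 and 135 CPM in the controls, a span of 1.19-fold over the 7 libraries. Its log2 fold change was -0.09 with a standard error of 0.14 (adjusted p = 0.782, edgeR quasi-likelihood, Benjamini-Hochberg). The counts are per gene, so the long form, which binds ATG8 proteins, was not separated from the short ones.

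Controls 1 and 4 were the highest libraries for Fam134a and Fam134c and the lowest for Sec62 and Atl3. The sum of 8 osteoblast markers, none at 0, stood apart in the same libraries. It was 71528 and 35461 CPM in controls 1 and 4 and 14264 to 24555 CPM in the other 5. Col1a1 and Col1a2 made up most of this sum, and they, Bglap and Bglap2 were highest in controls 1 and 4. The remaining markers did not all follow. Alpl, Sp7 and Runx2 were highest in control 1, but in control 4 they were below mutant 3. Ibsp was lowest in control 4, at 168 CPM, and highest in mutant 1, at 532 CPM. The part of these markers in the levels of the receptors was not tested. GC content also moved with this split. Over all genes with a known transcript GC content, the median ratio of controls 1 and 4 to controls 2 and 3 went from 0.52 in the GC-poorest decile of genes to 1.55 in the GC-richest. The ratio was 1.79 for Fam134a, whose longest transcript has 57.6% GC, and 1.51 for Fam134c, at 52.8%. It was 0.93 for Rtn3 (45.9% GC), 0.77 for Atl3 (42.6%), 0.73 for Ccpg1 (49.4%), 0.57 for Fam134b (45.2%) and 0.41 for Sec62 (42.4%). Fam134a and Fam134c, on the one side of this split, had more GC than Sec62 and Atl3 on the other. The part of base composition in these levels was not tested. Sec62, Fam134b and Ccpg1 were below, and Fam134a above, the middle 50% of genes of like GC content.

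**Figure D3:**
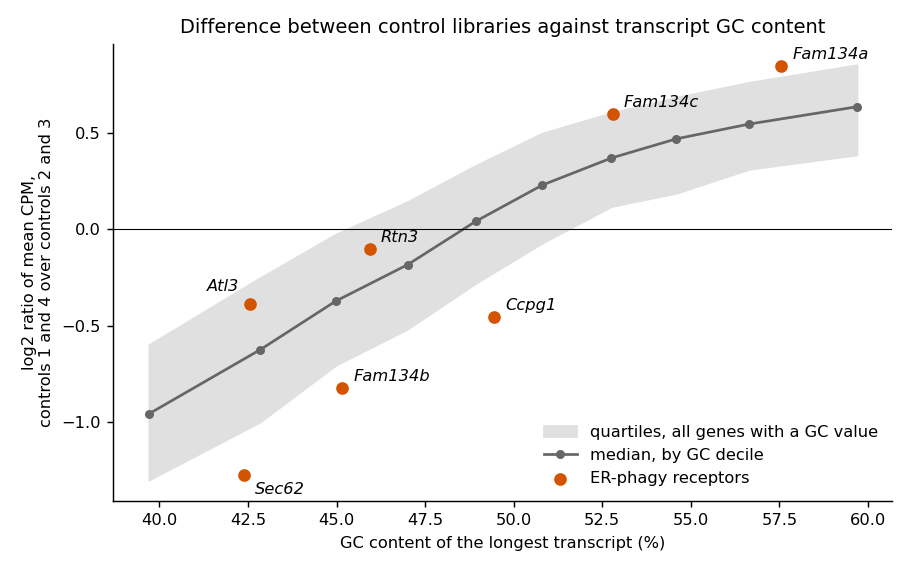
Log2 ratio of mean CPM in controls 1 and 4 to that in controls 2 and 3 against the GC content (%) of the longest transcript, for the 7 receptors (orange), with the median (grey points) and quartiles (band) of all genes by GC decile. The median ratio increased with GC content, and the receptors were spread around that trend.

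When each library's trend against GC content was removed, the span from the lowest to the highest library narrowed for 5 of the 7 receptors, and widened for Rtn3 (from 1.19-fold to 1.36-fold) and Ccpg1 (from 1.56-fold to 1.63-fold). The ratio of controls 1 and 4 to controls 2 and 3 became nearer to 1 for Fam134a (1.25), Fam134c (1.21), Sec62 (0.66) and Fam134b (0.74). It passed 1 for Atl3 (1.21) and Rtn3 (1.15), for Rtn3 ending farther from 1 than before, and was 0.71 for Ccpg1, little changed from 0.73. Fam134a then read 99.5, 109.7 and 115 CPM in the mutants and 132, 127, 129 and 189.6 CPM in the controls. Fam134c read 91.2, 94.8 and 96.2 CPM against 109.9, 100.04, 103 and 135 CPM. Both were lower in every mutant library, as were 8.83% of the genes so treated, and their log2 fold changes were -0.42 and -0.25, with 0 of the 7 receptors past the adjusted threshold. Fam134b still read 344 and 280.5 CPM in mutants 1 and 2 against 62.9 CPM in mutant 3 and 35.9 to 109.7 CPM in the controls, the same arrangement as before. Rtn3 had a log2 fold change of -0.23 in that fit, and Atl3 turned from 0.12 to -0.15.

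**Figure D4:**
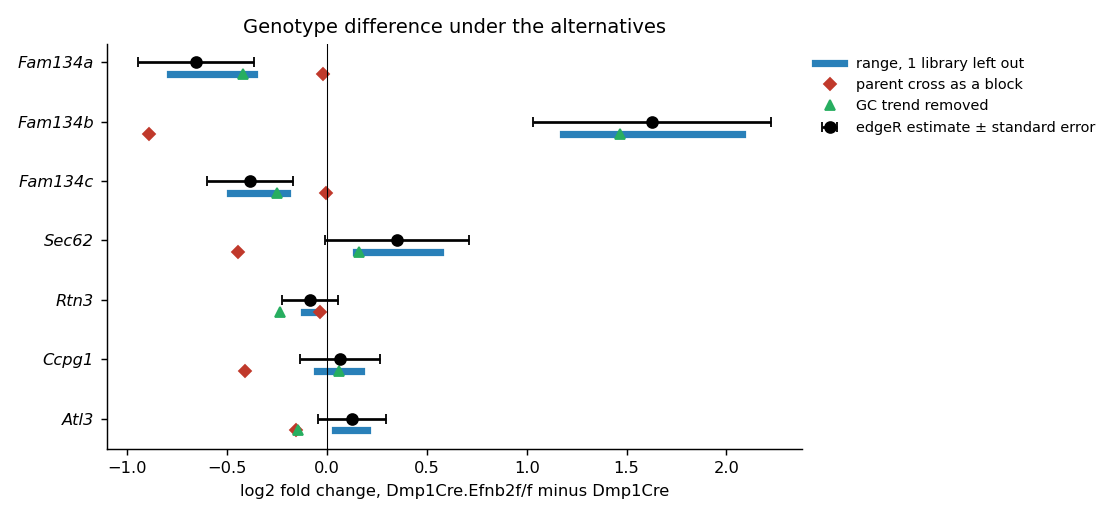
Log2 fold change of each receptor (Dmp1Cre.Efnb2f/f minus Dmp1Cre) with its standard error by edgeR (black), the range over fits that leave out 1 library (blue), the fit blocked on parent cross (red) and the fit with the GC trend removed (green). Fam134b stayed between 1.18 and 2.08 when any 1 library was left out and was -0.89 when blocked on parent cross.

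The genes that varied most like Fam134b over the 7 libraries were ranked by Pearson's r of log2 CPM. The 10 closest were Rbl2 (r = 0.992), Trim43a (0.991), Oacyl (0.991), Fbxo32 (0.987), Camta1 (0.985), Atp1b4 (0.985), Zc3h12b (0.984), Fam214a (0.983), 9130019P16Rik (0.983) and Spata6 (0.981). Several of these were near the floor, among them Trim43a, at 0.27 to 1.56 CPM, and Oacyl, at 0.05 to 2.33 CPM. Fbxo32 (atrogin-1) is a muscle ubiquitin ligase that rises in atrophy and fasting. It read 622, 765 and 56.9 CPM in the mutants and 109, 99.99, 152 and 29.1 CPM in the controls. As for Fam134b, mutants 1 and 2 were highest, control 4 was lowest and mutant 3 was below 3 controls. Trim63 (MuRF1), the other classical atrophy ligase, read 576, 937 and 48.0 CPM against 104, 99.4, 131 and 27.4 CPM, in the same arrangement. Pdk4, a kinase that spares glucose on fasting, read 1579.5, 1166 and 36.4 CPM against 406, 239.8, 675 and 56.1 CPM, and was lowest in mutant 3.

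Klf9 and Klf15, transcription factors induced by glucocorticoids and fasting, had a smaller span. Klf9 read 144, 147 and 70.4 CPM in the mutants and 92.5, 84.8, 92.7 and 34.0 CPM in the controls, and Klf15 read 32.5, 32.5 and 15.6 CPM against 24.1, 17.8, 15.7 and 9.84 CPM. Both were highest in mutants 1 and 2 and lowest in control 4, like Fam134b, whereas Fkbp5, another glucocorticoid-induced gene, was highest in control 2, at 145 CPM. Of the 10 atrophy and fasting genes, 8 had a higher mean and 2 a lower mean in the mutants and 0 passed the adjusted threshold, with a median log2 fold change of 0.44 beside 0.01 over all genes tested. Fbxo32 and Trim63 were known from earlier results of these data to move with Fam134b, so this list is not independent of it.

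Muscle content was looked at beside these genes because Fbxo32 and Trim63 belong to muscle. All 12 muscle markers had a higher mean in the mutants, with a median log2 fold change of 0.75, and 0 passed the adjusted threshold. Their sum was 30391, 44177 and 33975 CPM in mutants 1, 2 and 3 and 15431, 14455, 31768 and 16332 CPM in controls 1 to 4. Fam134b was at 378 CPM in mutant 1, 63.9 CPM in mutant 3 and 119 CPM in control 3, whose muscle sums were alike. Among the controls, control 3 was highest both in muscle sum and in Fam134b. Endothelial markers were also higher in mean, 6 of 6. Tek, Emcn and Flt1 were higher in every mutant library, as were 5.05% of all genes. The endothelial markers summed to 427 to 518 CPM in the mutants and 328 to 412 CPM in the controls. Erythroid markers ran the other way, with 8 of 8 lower in mean in the mutants. Of these 8, 5 were lower in every mutant library (Hba-a1, Hba-a2, Alas2, Epor and Slc4a1), as were 6.3% of all genes. The erythroid markers summed to 6907 to 14367 CPM in the mutants and 16082 to 45184 CPM in the controls. Granulocyte markers were lower in mean for 7 of 7, with S100a8, Ltf and Ngp lower in every mutant library (6.3% of all genes). They summed to 11867 to 14889 CPM in the mutants and 16970 to 19825 CPM in the controls. B cell markers did not follow, with 5 of 6 higher in mean in the mutants (median log2 fold change 0.11). The mean of Fam134a was lower in the mutants, as were those of the erythroid and granulocyte markers but not of most B cell markers. None of these markers passed the adjusted threshold. Their part in the levels of the receptors was not tested.

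**Figure D5:**
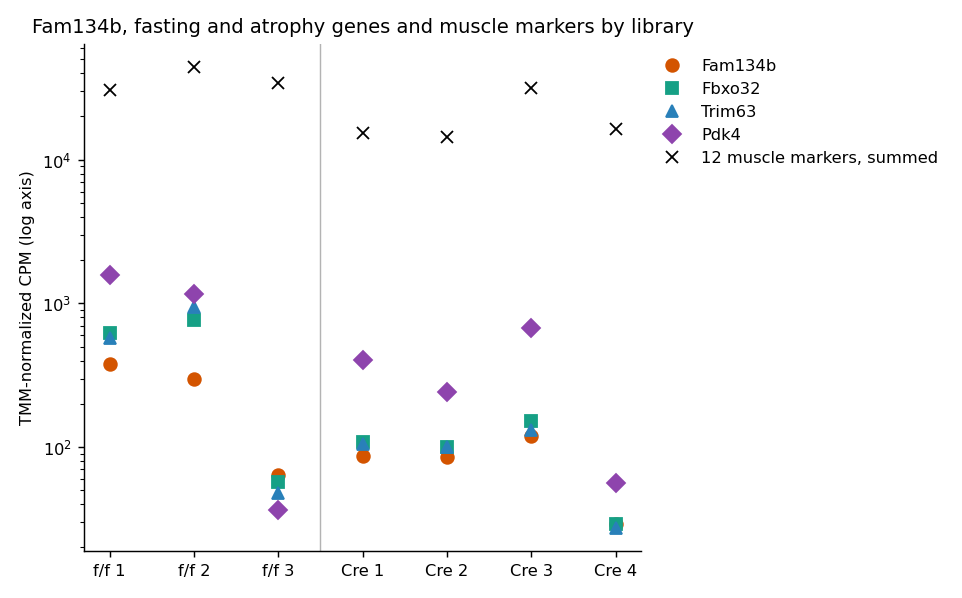
TMM-normalized CPM (log axis) of Fam134b, Fbxo32, Trim63, Pdk4 and the sum of 12 skeletal muscle markers in each of 3 Dmp1Cre.Efnb2f/f (f/f) and 4 Dmp1Cre (Cre) libraries. Fam134b, Fbxo32 and Trim63 were high in f/f 1 and f/f 2 and low in f/f 3 and Cre 4. The muscle sum in f/f 3 was 33975 CPM, between those of f/f 1 and f/f 2, and that of Cre 3 was the highest of the controls.

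The genes closest to the other receptors were different ones. They were Nop9, Ptpa and Epn1 for Fam134a (r of 0.998 to 0.999) and Mcat, Tab1 and Eef1b2 for Fam134c (0.999 each), all of them highest in control 4 and next highest in control 1. Zcchc7, Ap3m1 and Tax1bp1, the last itself an autophagy receptor, were closest to Sec62 (r of at least 0.999), and were lowest in those 2 controls. Zfp868, Kctd4 and F630111L10Rik were closest to Atl3 (0.997 to 0.998), Slfn10-ps, Rnf17 and Slc4a10 to Ccpg1 (0.987 to 0.994), and Supt3, Casp6 and Frrs1 to Rtn3 (0.949 to 0.965). Rnf17 and Slc4a10 were near the floor, at 0.16 to 3.04 CPM and 0.33 to 1.28 CPM. The correlations of all these genes are over the same 7 libraries and are given as a description.

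None of the rest of the pathway passed the same test. In 6 lists with 56 genes, 0 passed the adjusted threshold, and 6 (10.7%) had an unadjusted p under 0.05, near the 9.66% of all genes. Among 11 other ER-phagy receptors and partners, 9 had a higher mean and 2 a lower mean in the mutants (median log2 fold change 0.10). Tex264, a receptor of tubules, read 20.5, 22.8 and 23.6 CPM in the mutants and 34.1, 19.2, 16.5 and 31.0 CPM in the controls. Calcoco1, a soluble receptor that docks on VAPA and VAPB, read 77.9, 81.7 and 54.2 CPM against 77.8, 51.6, 62.5 and 67.0 CPM. Both were spread across the groups. Vapa, the tail-anchored docking protein, was the 1 of these 11 genes higher in every mutant library, as were 5.05% of all genes, at 89.21 to 92.7 CPM against 67.4 to 89.21 CPM, a margin lost in rounding. Rb1cc1 (FIP200), a scaffold of the kinase complex that starts autophagosomes, read 169, 149.8 and 98.9 CPM against 64.7, 142, 156 and 47.6 CPM, low in controls 1 and 4 like Sec62.

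The ATG8-family messages that the receptors bind were split, with 2 higher and 3 lower in mean (median log2 fold change -0.12). Gabarapl1 was high in mutants 1 and 2, at 74.8 and 65.0 CPM against 33.0 CPM in mutant 3, and the controls read 58.7, 35.6, 31.5 and 42.8 CPM. Map1lc3b read 102, 119 and 95.1 CPM in the mutants and 129.7, 87.3, 93.7 and 147 CPM in the controls, so the messages of these 2 ATG8 proteins had their maxima in different libraries.

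The ER-shaping proteins were also split, 8 higher and 7 lower in mean of 15 (median 0.03). Rtn2, a reticulon of muscle, had a log2 fold change of 0.72, Reep6 one of -0.69 and Ckap4, the coiled-coil protein that keeps sheets apart, one of -0.62, with an adjusted p of 0.511 each (edgeR quasi-likelihood, Benjamini-Hochberg). Reep6 was low throughout, at 2.52 to 3.32 CPM in the mutants and 3.63 to 6.03 CPM in the controls, the 1 of these 15 genes lower in every mutant library (6.3% of all genes). Ckap4 read 120.2, 145 and 171 CPM in the mutants and 266, 171, 165 and 293 CPM in the controls, highest in controls 1 and 4 as Fam134a was. The 5 translocon genes, partners of SEC62, had 2 higher and 3 lower in mean. Sec63 was at 96.7, 83.1 and 70.9 CPM against 47.1, 72.2, 77.6 and 41.7 CPM, arranged like Sec62. Sec61a1 was at 141, 157 and 193 CPM against 283, 168, 161 and 345 CPM, arranged like Fam134a. Partners in the same channel thus stood on opposite sides in controls 1 and 4.

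Genes of the unfolded protein response, of which Ccpg1 is a target, did not pass the test either, with 6 higher and 4 lower in mean of 10 (median log2 fold change 0.02). Hspa5 (BiP), the main chaperone of the reticulum, read 355, 352 and 425 CPM in the mutants and 351, 411, 381 and 425 CPM in the controls. Ddit3 (CHOP) read 16.1, 17.0 and 21.2 CPM against 13.8, 18.5, 18.0 and 22.1 CPM. Neither was high in mutants 1 and 2, where Fam134b was. Dnajb9, a co-chaperone of BiP, read 25.3, 21.9 and 16.7 CPM in the mutants against 15.9, 16.5, 19.7 and 13.7 CPM in the controls. Like Fam134b it was highest in mutants 1 and 2 and lowest in control 4. Unlike Fam134b, its level in mutant 3 was above controls 1, 2 and 4. Herpud1, which acts in degradation of reticulum proteins, was highest in mutant 2, at 213 CPM, and next in control 4, at 205 CPM.

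Promoters of the receptors, the 250 bases before each start in RefSeq (GRCm38.p6), were read for letters that transcription factors of autophagy, fasting and stress are known to bind. All 7 receptors had at least 1 start in the table, 10 in all, of which Fam134b had 4. Searched on both strands were CACGTG, the E-box bound by TFEB and TFE3, GTAAACA of FOXO factors, CAGCTG of MyoD-type factors, TGACGTCA of cAMP response, and the glucocorticoid and ER stress response elements. They stand in 6.02%, 3.17%, 13%, 1.55%, 0.387% and 0.113% of 32851 mouse promoters of that length. No glucocorticoid, MyoD-type or ER stress element was found before the receptors. The promoters that held any of these letters are shown in full, with the matched letters in capitals. Fam134a, Fam134b and Sec62 each had an E-box. The first line is Fam134a at chr1:75142536-75142785, with E-boxes starting 70 and 50 bases before the start and the FOXO letters 223 bases before it. The next are the most upstream start of Fam134b at chr15:25843048-25843297, with the cAMP letters 148 bases before the start, and its most downstream start at chr15:25942429-25942678, with an E-box 188 bases before it. The last is Sec62 at chr3:30792626-30792875, with an E-box 32 bases before the start. All are on the plus strand, written 5′ to 3′.
Fam134a: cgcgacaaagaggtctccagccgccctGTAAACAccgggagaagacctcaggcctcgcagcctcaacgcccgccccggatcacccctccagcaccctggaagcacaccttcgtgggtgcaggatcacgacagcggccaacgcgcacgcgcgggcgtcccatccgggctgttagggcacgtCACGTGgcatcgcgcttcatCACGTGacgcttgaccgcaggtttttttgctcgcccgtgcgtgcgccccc
Fam134b upstream start: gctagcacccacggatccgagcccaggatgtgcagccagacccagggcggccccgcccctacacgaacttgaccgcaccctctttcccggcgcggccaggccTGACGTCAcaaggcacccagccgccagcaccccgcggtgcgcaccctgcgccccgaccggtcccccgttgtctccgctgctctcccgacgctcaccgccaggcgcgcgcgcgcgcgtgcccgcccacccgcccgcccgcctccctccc
Fam134b downstream start: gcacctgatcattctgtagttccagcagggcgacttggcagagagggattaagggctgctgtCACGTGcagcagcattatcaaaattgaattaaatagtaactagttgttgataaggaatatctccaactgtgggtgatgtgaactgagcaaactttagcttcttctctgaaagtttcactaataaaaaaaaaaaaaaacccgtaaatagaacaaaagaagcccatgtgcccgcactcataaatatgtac
Sec62: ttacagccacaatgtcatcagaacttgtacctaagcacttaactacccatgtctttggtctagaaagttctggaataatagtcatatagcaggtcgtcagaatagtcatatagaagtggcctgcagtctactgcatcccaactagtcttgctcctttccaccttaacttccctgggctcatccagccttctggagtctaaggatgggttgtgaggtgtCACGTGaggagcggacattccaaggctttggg
The promoter of the upstream Fam134b start is 76.4% GC and that of the downstream start 39.6%, and the counts do not tell which start was used in which animal. A match of letters is a description of this window, and whether any of these sites is in use was not tested.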

How the data were processed

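RNA of femora flushed of marrow was sequenced in 7 libraries, 3 Dmp1Cre.Efnb2f/f and 4 Dmp1Cre, grouped by the labels. The authors mapped reads to mm10 with Rsubread and deposited raw counts per Entrez gene from featureCounts, with base calls by bcl2fastq 2.17.1.14 per the labels; the strand setting is not given in the sources used here. Per the file headers, gene lengths came with the counts and were used for RPKM. Of the genes, 16302 reached 0.65 CPM in 3 or more libraries, and from these 1204 immunoglobulin segments, predicted genes, pseudogenes, ribosomal RNA, sex-linked genes and genes without a symbol were left out. The 15098 others were tested with edgeR 4.0.16 (TMM, robust quasi-likelihood, genotype only) in R 4.3.3. Standard errors are the log2 fold change over the square root of the F statistic.

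DESeq2 1.42.0, the limma 3.58.1 pipeline of the study, voom, other filters and scalings, blocks and left-out libraries were run as alternatives. The study collected animals on 2 days, which are in no label, so each of 12 pairings for the second day was tried. GC content is that of the longest GENCODE M21 transcript, known for 14434 genes. Its removal, a trend per library taken off as an offset, was chosen after seeing the data. Scripts were tested on simulated data. Members and lists were chosen with earlier results of these data known. Genes named are the members, the lists, the targeted gene and the genes most like each member. P-values measure the spread between these libraries, which the labels number within a genotype without naming the animals. The main fit treats the 7 libraries as independent, although mutants 1 and 2 share parents, as do controls 1 and 2.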

Additional observations from a re-analysis of the deposited data

Results flagged for a closer look

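Among the 63 member and pathway genes, 2 had a control library apart from the other 3 by Dixon's criterion for 4 samples (the gap to its neighbour over the group's range), which chance does in about 1 of 20 groups. None of the 7 receptors did. Reep1, an ER-shaping protein, was at 27.6 CPM in control 3 and at 10.1 to 11.2 CPM in the other controls (gap over range 0.936). Klf9, a glucocorticoid-induced transcription factor, was at 34.0 CPM in control 4 and at 84.8 to 92.7 CPM in the others (0.865), and control 4 was also the lowest library for Fam134b. The cause was not tested.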

How the results depend on the processing

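Under edgeR, DESeq2, voom, the other scalings and filters, the blocks on replicate number and parent cross, each left-out library and the removal of the GC trend, 0 of the 7 receptors and 0 of the 56 pathway genes passed the adjusted threshold. The limma pipeline without a day block counted 1 receptor and 12 of the 56 pathway genes (21.4%, beside 14.9% of all genes), and with a day block 0 to 2 receptors and up to 21 pathway genes (37.5%, beside 32.6% of all genes), depending on which pair was placed on the second day. These receptors were Fam134b, whose inclusion is no test since it was chosen on this contrast, and Fam134a. The log2 fold change of Fam134b lay between 1.18 and 2.08 when 1 library was left out, was 0.19 and 2.20 at the extremes of the 12 day blocks, and was -0.89 in the fit blocked on parent cross, where 1 pair bears on it. Signs turned for Sec62 (-0.44 with the parent cross, -0.15 without controls 1 and 4), Atl3 (-0.15 with the parent cross, -0.055 without controls 1 and 4, -0.15 with the GC trend removed) and Ccpg1 (-0.018 by limma, -0.051 by voom, -0.053 with the replicate block, -0.41 with the parent cross, -0.14 without controls 1 and 4, -0.15 at the lowest day block, and -0.052 to 0.17 with 1 library left out). Fam134a, Fam134c and Rtn3 kept a negative sign in all alternatives run, between -0.79 and -0.0045 across them. The cause of these shifts was not tested. Same-numbered animals did not deviate together (correlations -0.14, 0.06 and -0.42, with 0 of 3 libraries closest to its own number), so the numbers do not pair them; with the replicate block Fam134b had 1.08 and 0 receptors were called. The spread between libraries, not counting error, limits these comparisons.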
